A study of Mus musculus with 9 samples.

Results

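The genes described here are the enzymes that build cholesterol and fatty acids, together with 4 genes that govern or follow that synthesis. They were chosen by name as genes driven by the sterol regulatory element binding proteins (SREBPs), with earlier results of these data known. All 30 were among the 19938 genes measured. Of these, 17 belong to the sterol branch, which runs from the condensation step of the mevalonate pathway to the last reductase before cholesterol. Another 9 belong to the fatty acid branch, from the supply of acetyl-CoA to chain elongation and desaturation. The remaining 4 are the transcription factor genes Srebf1 and Srebf2, the SREBP retention factor Insig1 and the sterol carrier Stard4.

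SREBPs are made as precursors anchored in the membrane of the endoplasmic reticulum, where Insig proteins hold them while sterols are plentiful. When sterols fall, the precursors move to the Golgi apparatus, are cut by a pair of proteases, and the freed fragment enters the nucleus and turns on the synthesis genes. The Srebf2 product is known mainly for the sterol branch and the Srebf1 products for the fatty acid branch. In dividing fibroblasts both branches supply new membrane.

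The study compared mouse embryonic fibroblasts, primary cells grown from embryos, of 3 genotypes with 3 arrays each. WT cells carry the normal retinoblastoma gene (Rb +/+). ΔG cells carry on both copies an Rb allele mutated at the site shared by its contacts with E2F transcription factors (Rb ΔG/ΔG). Null cells have no intact copy (Rb -/-). All cells were serum deprived. Plating was sparse, on 15 cm dishes, and after 24 h the serum was cut to 0.1%, which brings fibroblasts into quiescence. The series text calls the cells littermate paired, but no label ties an array number to a litter, and no source used here gives embryonic age, strain or sex. RNA was hybridised to Affymetrix Mouse Gene 1.0 ST arrays, and each value is a log2 signal, so a difference of 1 is a doubling. A signal depends on the probe set as well as on the RNA, so levels are compared between arrays for a gene and not between genes. A gene is called changed where the Benjamini-Hochberg adjusted p of limma, a linear model fitted over all 19938 genes, was under 0.05.

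Several features of the arrays touch every result below. Rb1 read 8.93, 9.17 and 9.16 in the WT arrays, 9.53, 9.76 and 9.54 in the ΔG arrays and 8.18, 8.58 and 8.19 in the null arrays. It was lower in null (log2 change −0.77, adjusted p = 0.00115), with signal left in the null arrays, and where its probes lie relative to the deleted part was not examined. The 30 members were well above the dimmest genes, with mean signals from percentile 55.3 of all genes (Pmvk) to 99.9 (Scd2). On the first principal component, with 51.8% of the variance, the WT arrays scored −21.3 to −14.7, ΔG replicates 1 and 2 scored −13.9 and −11.5, ΔG replicate 3 scored −0.30 and the null arrays scored 24.3 to 27.4. ΔG replicate 3 therefore stood apart from its group, and results that rest on it are given with and without it. Xist, the RNA that silences an X chromosome in female cells, was between 4.24 and 4.45 in WT replicates 1 and 2 and in the ΔG arrays, and between 11.42 and 11.98 in WT replicate 3 and the null arrays. The Y-linked gene Eif2s3y had the opposite pattern. Sex and genotype therefore cannot be told apart between ΔG and null, and only WT replicate 3 shares the pattern of the null arrays. Fibroblast markers were bright on every array (mean log2 signal of 10 genes between 10.9 and 11.7), and the 8 epithelial and liver markers stayed between 5.42 and 5.59. The 9 measured adipocyte markers stayed between 5.77 and 5.96, and Adipoq, a hormone made by fat cells, was at 4.62 to 4.87 on every array. The 12 macrophage and leukocyte markers had their highest means in ΔG replicate 1 (7.22), ΔG replicate 2 (6.66) and WT replicate 1 (6.61), and lay between 5.49 and 6.17 on the other arrays.

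In cells without Rb, 15 of the 30 lipid synthesis genes rose against WT and none fell. Over all genes tested, 8.38% were called higher in null, so the lipid synthesis genes were called at 50% against that background. That background includes dim genes, while the members lay at percentile 55.3 or above in mean signal. A background matched for signal was not drawn here or for the shares below. All 30 had a higher mean in null than in WT, with a median log2 change of 0.36 and a range of 0.05 to 1.13, where the median over all genes was −0.01. In 24 of the 30 the lowest null array lay above the highest WT array, which held for 15.7% of all genes. The count of called genes was 10 without WT replicate 2, 9 without WT replicate 3, 9 without null replicate 1 or null replicate 2, and 20 without ΔG replicate 3. Against WT replicate 3 alone, the array that shares the Xist pattern of null, 4 were called and the median change was 0.48. With 1 WT array the spread in that fit comes from the ΔG and null arrays, and WT is assumed to vary like them. With the mean of the 3 measured Y-linked genes as a covariate, 3 were called and the median was 0.47. All 9 mitotic and all 10 replication genes also rose in null, and with the Y-linked covariate 5 and 10 of them were called. Among them were the helicase subunits Mcm6 (2.16, adjusted p = 6.32e-06) and Mcm3 (1.90, 6.32e-06), the kinetochore gene Spc25 (1.07, 0.000489) and the kinase Melk (1.07, 0.00143). Of 10 fibroblast markers 8 fell in null, where 10.1% of all genes were called lower. Their mean lay between 10.9 and 11.1 in null and between 11.4 and 11.7 in WT. Of these markers, 5 were called without WT replicate 1, 6 without WT replicate 2 or null replicate 3, and 1 with the Y-linked covariate. The part of these lists in the lipid changes was not tested. RNA was taken from all cells of a dish, so fewer cells of a type and less RNA per cell cannot be told apart.

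**Figure D1:**
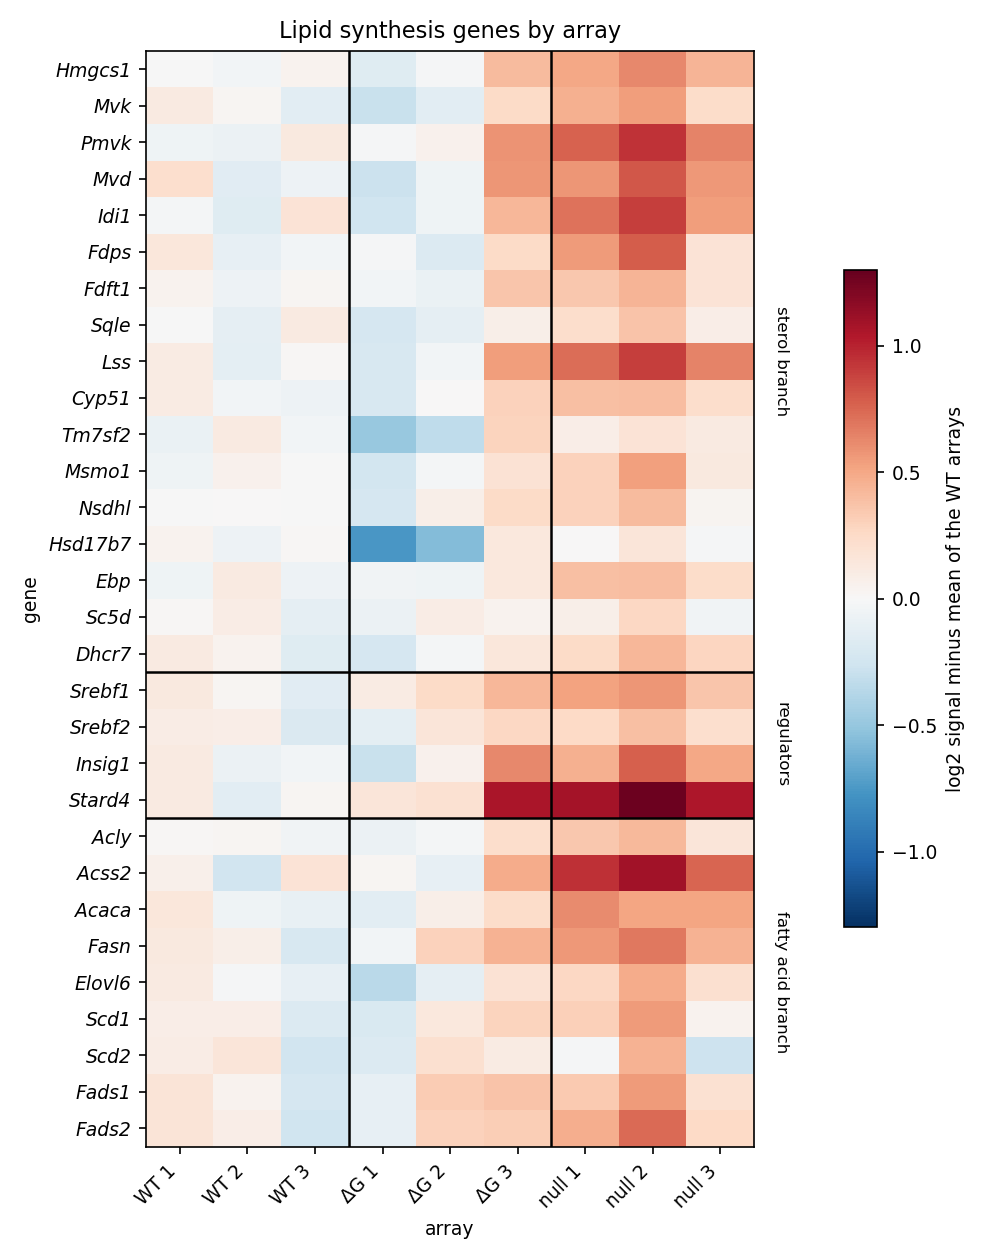
Log2 signal of each of the 30 lipid synthesis genes (rows, grouped by role) on each of the 9 arrays (columns), as the difference from the mean of the WT arrays, with red for higher and blue for lower. Null columns are red in nearly every row, ΔG replicate 3 is red where ΔG replicate 1 is mostly blue, and Stard4 reaches 1.27 in null replicate 2.

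Promoters of 3 members with low adjusted p in null, and of the members that hold a sterol element, are shown here. Of the latter, Msmo1 and Srebf2 were not called in null. Motif shares of called and other members were not compared. RefSeq windows (build GRCm38.p6) of 250 bases before the annotated start were found for 23 of the 30 members. A gene with several windows was counted where any of them held the motif. The classic sterol element TCACNCCA, searched on both strands, was found in 3 of the 23 (13%) and in 4.0% of the 15614 measured genes with an entry. CCAAT, the box bound by NF-Y, a known partner of SREBPs, was found in 19 of the 23 (82.6%) against 38.8% of those genes. GGGCGG, a GC box, was found in 19 of the 23 (82.6%) against 49.3%, and the E2F-like motif TTTNNCGC in 1 of the 23, Fasn (4.3%), against 6.3%. The motifs were chosen with results of these data known, a match of letters is not a bound site, and more distant sequence was not examined. TCACNCCA can run into a CCAAT, but no such overlap occurs in the windows shown. The first 3 windows belong to the genes with the lowest adjusted p in null among those with a single RefSeq start and a CCAAT, and the last 3 to the only members with TCACNCCA. Each runs 5′ to 3′ along the gene's own strand up to its start, and capitals mark TCACNCCA and CCAAT, the latter printed as its reverse complement ATTGG where it lies on the other strand.
Acss2, chr2:155517793-155518042, plus strand: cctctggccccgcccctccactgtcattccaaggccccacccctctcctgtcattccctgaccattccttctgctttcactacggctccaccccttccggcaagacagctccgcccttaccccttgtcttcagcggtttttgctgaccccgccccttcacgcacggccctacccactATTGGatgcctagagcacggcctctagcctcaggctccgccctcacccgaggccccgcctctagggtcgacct
Lss, chr10:76531355-76531604, plus strand: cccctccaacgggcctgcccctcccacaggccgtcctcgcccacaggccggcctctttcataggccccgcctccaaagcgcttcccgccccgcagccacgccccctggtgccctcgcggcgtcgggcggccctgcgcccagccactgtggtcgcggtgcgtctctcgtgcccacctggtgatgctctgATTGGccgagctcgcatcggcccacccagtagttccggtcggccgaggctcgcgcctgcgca
Idi1, chr13:8885356-8885605, plus strand: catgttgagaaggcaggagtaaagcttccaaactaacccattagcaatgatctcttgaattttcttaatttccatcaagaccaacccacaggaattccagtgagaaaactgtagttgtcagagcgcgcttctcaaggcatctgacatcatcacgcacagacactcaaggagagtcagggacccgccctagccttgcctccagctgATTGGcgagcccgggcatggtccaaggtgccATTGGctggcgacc
Hmgcs1, chr13:119690101-119690350, plus strand: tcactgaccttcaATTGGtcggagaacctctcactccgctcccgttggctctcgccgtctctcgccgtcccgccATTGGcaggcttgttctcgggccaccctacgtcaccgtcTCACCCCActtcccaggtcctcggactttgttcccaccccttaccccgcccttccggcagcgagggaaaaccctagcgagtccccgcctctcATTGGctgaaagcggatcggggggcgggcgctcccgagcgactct
Msmo1, chr8:64733579-64733828, minus strand: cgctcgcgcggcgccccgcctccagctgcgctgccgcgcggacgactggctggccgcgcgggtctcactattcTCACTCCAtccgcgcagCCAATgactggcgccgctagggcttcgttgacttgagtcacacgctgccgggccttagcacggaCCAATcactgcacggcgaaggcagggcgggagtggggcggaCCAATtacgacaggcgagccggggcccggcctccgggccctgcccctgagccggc
Srebf2, chr15:82147019-82147268, plus strand: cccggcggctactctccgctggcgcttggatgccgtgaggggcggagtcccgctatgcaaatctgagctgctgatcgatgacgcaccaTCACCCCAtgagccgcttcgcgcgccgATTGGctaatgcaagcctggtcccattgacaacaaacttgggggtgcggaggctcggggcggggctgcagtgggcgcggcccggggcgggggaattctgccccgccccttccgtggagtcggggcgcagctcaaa

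The sterol branch begins with the mevalonate pathway. Of the 17 sterol genes, 7 were called higher in null, against 8.38% of all genes. The median log2 change over all 17 was 0.34. Hmgcs1, which condenses acetoacetyl-CoA with acetyl-CoA, had a log2 signal of 10.20, 10.16 and 10.24 in WT, 10.04, 10.19 and 10.62 in ΔG and 10.70, 10.82 and 10.64 in null. Every null array lay above every WT array, by a mean of 0.52 ± 0.12 (SE; adjusted p = 0.0129), and ΔG replicate 3 lay just below the lowest null array. Pmvk, which adds the second phosphate to mevalonate, read 6.68, 6.66 and 6.85 in WT, 6.72, 6.79 and 7.31 in ΔG and 7.50, 7.67 and 7.38 in null. Its rise in null, 0.79 ± 0.14 or 1.72-fold (adjusted p = 0.00288), was the highest of the branch, and the WT and null arrays did not overlap. Mvd, which makes isopentenyl diphosphate from the doubly phosphorylated product, read 8.37, 7.999 and 8.08 in WT, 7.87, 8.09 and 8.72 in ΔG and 8.72, 8.95 and 8.71 in null. The change in null was 0.65 ± 0.18 (adjusted p = 0.0301), and the ΔG arrays spanned from below every WT array to within the null range. Mvk, the kinase of the first phosphorylation, was at 8.77, 8.67 and 8.51 in WT, 8.35, 8.51 and 8.89 in ΔG and 9.11, 9.19 and 8.89 in null. The WT and null arrays of Mvk did not overlap, but its change in null missed the threshold (0.42, adjusted p = 0.0505).

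Isoprenoid assembly and ring closure come next, and 3 of these 5 enzymes rose in null, against 8.38% of all genes. Idi1, the isomerase that makes dimethylallyl diphosphate, read 9.30, 9.16 and 9.50 in WT, 9.06, 9.26 and 9.75 in ΔG and 10.03, 10.22 and 9.87 in null, a rise of 0.72 ± 0.16 (adjusted p = 0.00915). A further probe set annotated to Idi1 gave 0.68 against the 0.72 used here. Fdps, which joins the isoprene units to farnesyl diphosphate, read 8.93, 8.68 and 8.75 in WT, 8.77, 8.61 and 9.03 in ΔG and 9.34, 9.57 and 8.97 in null. Its rise of 0.51 ± 0.15 (adjusted p = 0.0352) came with a wide spread in null, whose lowest array was near the highest WT array. Lss, the cyclase that folds oxidosqualene into lanosterol, was at 9.09, 8.85 and 8.99 in WT, 8.77, 8.94 and 9.52 in ΔG and 9.70, 9.88 and 9.62 in null. The groups WT and null were separate for Lss, with a change of 0.76 ± 0.16 or 1.69-fold (adjusted p = 0.00701). Sqle, the epoxidase just before Lss and a rate-limiting step of the branch, read 10.39, 10.28 and 10.51 in WT, 10.18, 10.27 and 10.47 in ΔG and 10.62, 10.77 and 10.48 in null. The groups overlapped for Sqle, and its change in null of 0.23 did not pass the test (adjusted p = 0.158, 95% interval 0.0044 to 0.45). Fdft1, the squalene synthase between Fdps and Sqle, had a change of 0.33 that missed the threshold (adjusted p = 0.0733), and its 2 probe sets gave 0.33 and 0.34.

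Of the enzymes that turn lanosterol into cholesterol, 1 of 8 was called higher in null, a share near the 8.38% of all genes. Ebp, the sterol isomerase, read 7.69, 7.86 and 7.68 in WT, 7.70, 7.69 and 7.88 in ΔG and 8.14, 8.15 and 7.98 in null, with no overlap between WT and null (0.35 ± 0.08, adjusted p = 0.0152). The demethylase Cyp51, the methylsterol oxidase Msmo1 and the last reductase Dhcr7 had changes of 0.34, 0.32 and 0.32 (adjusted p = 0.064, 0.0924 and 0.0588). Nsdhl, a dehydrogenase that works with Msmo1, had 0.25 (adjusted p = 0.194). The sterol reductase Tm7sf2, the desaturase Sc5d and the ketosteroid reductase Hsd17b7 had the smallest changes of the branch, 0.13, 0.10 and 0.05 (adjusted p = 0.667, 0.558 and 0.894). For Hsd17b7 the interval of the null change, −0.34 to 0.44, allows a shift in either direction.

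The regulators and the sterol carrier include the highest change of all 30 members. Stard4, which carries cholesterol between membranes, read 7.54, 7.29 and 7.46 in WT, 7.58, 7.63 and 8.50 in ΔG and 8.51, 8.70 and 8.48 in null. It rose by 1.13 ± 0.20 in null, 2.19-fold (adjusted p = 0.00231), and every ΔG array also lay above every WT array, ΔG replicate 3 by far the most. Srebf1 was at 8.91, 8.81 and 8.64 in WT, 8.90, 9.04 and 9.22 in ΔG and 9.31, 9.36 and 9.15 in null, and rose by 0.49 ± 0.10 in null (adjusted p = 0.0068). Srebf2 read 10.38, 10.37 and 10.10 in WT, 10.16, 10.45 and 10.55 in ΔG and 10.54, 10.67 and 10.50 in null. The WT and null arrays of Srebf2 did not overlap, but the change of 0.29 did not pass the test (adjusted p = 0.106, 95% interval 0.04 to 0.53). Insig1, itself a target of SREBPs, read 10.80, 10.60 and 10.65 in WT, 10.39, 10.74 and 11.31 in ΔG and 11.14, 11.46 and 11.19 in null. Its rise of 0.58 ± 0.18 lay just past the threshold (adjusted p = 0.0484), and ΔG replicate 3 was above null replicates 1 and 3.

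**Figure D2:**
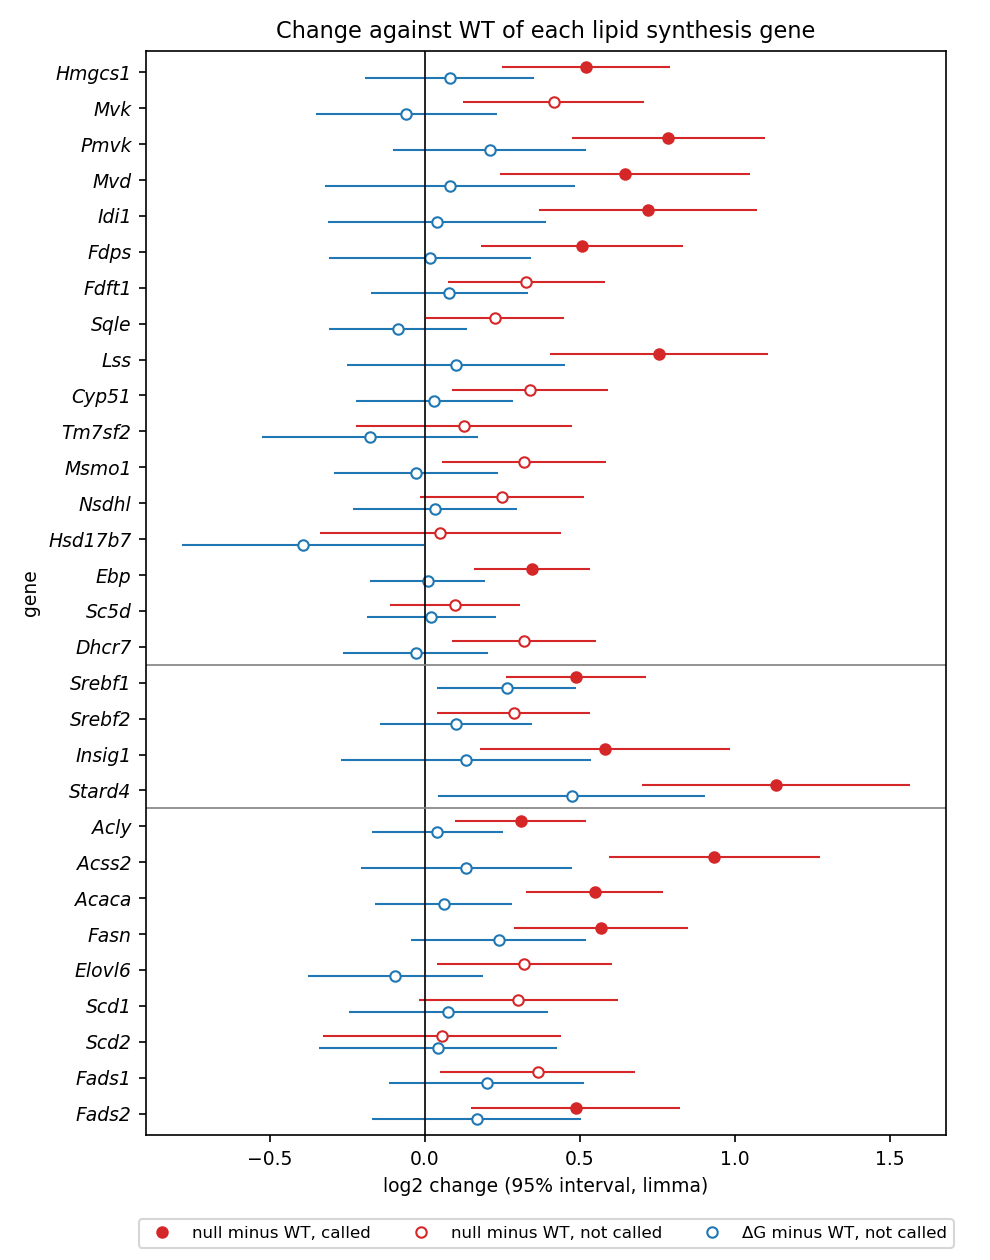
Log2 change against WT (x axis) of each lipid synthesis gene (y axis, grouped by role) in null (red) and in ΔG (blue), from limma, with 95% intervals as bars and filled circles for genes called at an adjusted p of 0.05. All 15 filled circles belong to null and lie right of 0, from 0.31 for Acly to 1.13 for Stard4, while no ΔG change was called.

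In the fatty acid branch, 5 of 9 genes were called higher in null, against 8.38% of all genes. The median log2 change over the 9 was 0.36. Acss2, which makes acetyl-CoA from acetate, read 8.04, 7.73 and 8.15 in WT, 8.0, 7.87 and 8.46 in ΔG and 8.93, 9.06 and 8.74 in null. It rose by 0.93 ± 0.15, 1.91-fold, with the lowest adjusted p of all members (0.00177), and the null arrays lay above all 6 others. Acly, which makes acetyl-CoA from citrate, rose by 0.31 (adjusted p = 0.0444). Acaca, the carboxylase of the committed step, was at 9.26, 9.06 and 9.02 in WT, 8.98, 9.19 and 9.36 in ΔG and 9.73, 9.63 and 9.63 in null. Its change of 0.55 ± 0.10 (adjusted p = 0.00325) separated null from every other array, and a further probe set gave 0.41. Fasn, the synthase that builds palmitate, read 9.83, 9.77 and 9.49 in WT, 9.66, 9.99 and 10.15 in ΔG and 10.27, 10.38 and 10.15 in null, a rise of 0.57 ± 0.13 (adjusted p = 0.00982).

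Of the 5 elongation and desaturation genes, 1 was called higher in null, against 8.38% of all genes. Fads2, a desaturase of polyunsaturated fatty acids, rose by 0.49 ± 0.15 (adjusted p = 0.0477). Its partner Fads1 had 0.36 and the elongase Elovl6 0.32, neither past the threshold (adjusted p = 0.107 and 0.115). Scd1, the desaturase that makes oleate from stearate, read 11.57, 11.57 and 11.31 in WT, 11.28, 11.62 and 11.77 in ΔG and 11.79, 12.03 and 11.52 in null. The lowest null array of Scd1 lay below the highest WT array, and its change of 0.30 did not pass (adjusted p = 0.196). Scd2, a related desaturase, had a change of 0.05 with a 95% interval of −0.33 to 0.44 (adjusted p = 0.884).

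The called genes were not equally stable when 1 array was left out. Hmgcs1, Pmvk, Idi1, Lss, Stard4, Srebf1, Acaca, Acss2 and Fasn kept their calls in null without any 1 of the 9 arrays, and the other 6 lost theirs in at least 1 case. Mvd lost its call without WT replicate 2 (adjusted p = 0.106), WT replicate 3 (0.0809), null replicate 1 (0.0663), null replicate 2 (0.102) and null replicate 3 (0.0594). Fdps lost it without WT replicates 2 (0.117) and 3 (0.0872) and null replicates 1 (0.108) and 2 (0.126). Ebp lost it without WT replicates 1 (0.0549) and 3 (0.0508) and null replicates 1 (0.0625) and 2 (0.053). Insig1 and Acly lost theirs without any WT array, ΔG replicate 2, null replicate 1 or null replicate 2, and Insig1 also without null replicate 3, with adjusted p up to 0.156 and 0.146. Fads2 lost its call without WT replicates 2 and 3, ΔG replicate 2 and null replicates 1 and 2 (up to 0.166). Against WT replicate 3 alone, a fit that holds no spread among WT arrays, Srebf1, Acaca and Fasn had changes of 0.64, 0.64 and 0.77 and were called, as they were under every other alternative tried. There Stard4 was called as well (1.11), while Acss2 and Pmvk, at 0.76 and 0.66, were not (adjusted p = 0.0536 and 0.0894).

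In ΔG cells no lipid synthesis gene was called against WT, where limma called 0.813% of all genes. An unadjusted p under 0.05 was found for 3 of the 30, against 11.8% of all genes. They were Hsd17b7, with a log2 change of −0.39 (adjusted p = 0.421), Stard4, with 0.47 (0.374), and Srebf1, with 0.26 (0.333). The mean was higher in ΔG for 23 members and lower for 7, with a median of 0.05, but without ΔG replicate 3 it was higher for 9 and lower for 21, with a median of −0.07. Array quality weights, which gave ΔG replicate 3 the lowest weight (0.564), turned the split to 8 higher and 22 lower. Without ΔG replicate 3, Hsd17b7 was called lower in ΔG (−0.66, adjusted p = 0.00672). The 95% interval of the ΔG change lay wholly below 0.36, the median change in null, for 17 of the 30 members, among them Sqle (−0.31 to 0.14), Ebp (−0.18 to 0.20) and Acaca (−0.16 to 0.28). For the other 13 it reached that value, as for Lss (−0.25 to 0.45), Fasn (−0.04 to 0.52) and Acss2 (−0.20 to 0.47), whose own changes in null lay above these intervals. Set against each gene's own change in null, the interval lay wholly below it for 20 of the 30 members. For the rest it reached that change, as for Fads1 (−0.11 to 0.51, null change 0.36) and Scd1 (−0.25 to 0.40, null change 0.30). All these limma intervals rest on 1 spread per gene shared by the 3 genotypes. The members' median standard deviation was 0.25 in ΔG against 0.12 in WT and 0.14 in null. The intervals may thus be too narrow for the ΔG changes.

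The 3 ΔG arrays differed from each other in these genes. In ΔG replicate 3, 27 of the 30 members lay above every WT array, against 23.9% of all genes, with a median difference from the WT mean of 0.29. On the same array 20 of the 30 were at or above the lowest null array, a share near the 68.5% of all genes. In ΔG replicate 1, 17 lay below every WT array, against 31.6% of all genes, and the median difference was −0.17. ΔG replicate 2 lay between them, with 10 above and 6 below every WT array (28.7% and 27.9% of all genes) and a median of −0.02. Hsd17b7 shows the range within the group: it read 10.06, 9.95 and 10.02 in WT, 9.25, 9.45 and 10.15 in ΔG and 10.02, 10.16 and 9.998 in null. The median standard deviation of the members was 0.25 in ΔG against 0.12 in WT and 0.14 in null, while over all genes it was 0.10, 0.10 and 0.09 in ΔG, WT and null. For 26 of the 30 members ΔG was the group with the widest spread, which held for 35.5% of all genes.

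Markers of dividing cells and of macrophages also varied among the ΔG arrays. The mean log2 signal of 9 mitotic genes was 7.78, 7.60 and 8.37 in ΔG replicates 1 to 3, against 7.38 to 8.01 in WT and 8.60 to 8.84 in null. The 12 macrophage and leukocyte markers averaged 7.22, 6.66 and 5.88 in the same ΔG arrays. ΔG replicate 3 was thus highest of its group in mitotic genes and lipid synthesis genes and lowest in macrophage markers, and the part of either list in the lipid results was not tested. Of the replication genes under E2F control, all 10 were called higher in ΔG, with array means of 8.71, 8.66 and 8.94 against 7.36 to 7.83 in WT, while no lipid synthesis gene was called there. Mcm3 had the lowest p of that list in ΔG (1.45, adjusted p = 0.000597), and of the mitotic genes, none of them called in ΔG, Spc25 had the lowest (0.34, 0.393).

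Compared directly, ΔG cells had lower signals than null cells for all 30 members, with a median log2 difference of −0.34, and 7 of the 30 were called lower. Over all genes 4.27% were called lower in ΔG than in null and 4.44% higher. Groups without overlap, ΔG below null, were found for 10 of the 30 members and 13.3% of all genes. The called members were Acss2 (−0.80, adjusted p = 0.00914), Acaca (−0.49, 0.0131), Idi1 (−0.68, 0.0233), Lss (−0.65, 0.0272), Pmvk (−0.58, 0.0281), Ebp (−0.34, 0.0312) and Mvk (−0.48, 0.0486). Of the 7, 5 are sterol genes and 2 fatty acid genes, and none of the 4 regulators was called. All but Mvk were also called in null against WT, a comparison that shares the null arrays. The count was 1 without ΔG replicate 1 or null replicate 1, 2 without ΔG replicate 2 or null replicate 2, and 22 without ΔG replicate 3, and only the Acss2 call was made in all of these fits. With the Y-linked covariate none of the 7 was called.

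The sterol and fatty acid branches were set side by side on each array. The 17 sterol genes averaged a log2 signal of 9.27 ± 0.03 in WT, 9.26 ± 0.27 in ΔG and 9.66 ± 0.14 in null (mean ± SD, n = 3 arrays each). The 9 fatty acid genes averaged 10.26 ± 0.12 in WT, 10.36 ± 0.21 in ΔG and 10.70 ± 0.18 in null. By array, the sterol means were 9.31, 9.24 and 9.26 in WT, 9.05, 9.18 and 9.56 in ΔG, and 9.66, 9.80 and 9.53 in null. The lowest null array therefore lay above every WT array, and ΔG replicate 3 lay above the lowest null array. The fatty acid means were 10.38, 10.28 and 10.13 in WT, 10.14, 10.39 and 10.56 in ΔG, and 10.69, 10.87 and 10.52 in null, with the same relation of the groups. The sterol mean minus the fatty acid mean, which has meaning only between arrays, came to −0.998 ± 0.105 in WT, −1.10 ± 0.10 in ΔG and −1.03 ± 0.04 in null. These differ by about 1 SD or less, so no shift of one branch relative to the other was seen between genotypes beyond the spread of the arrays.

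**Figure D3:**
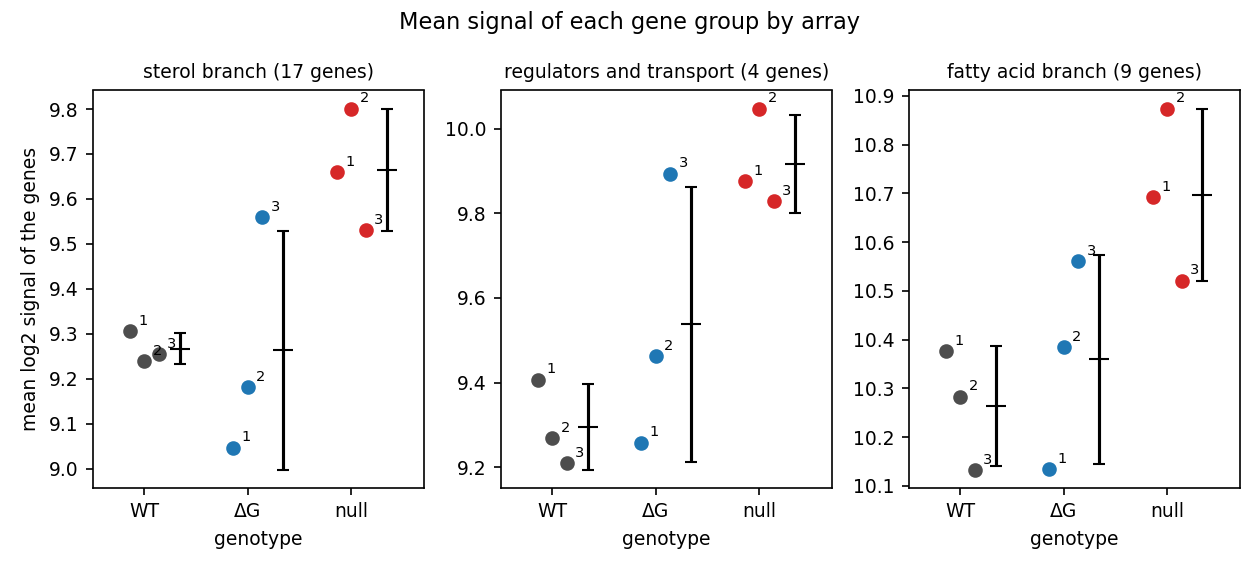
Mean log2 signal (y axis, a separate scale in each panel) of the 17 sterol genes, the 4 regulators and the 9 fatty acid genes on each array of WT, ΔG and null (x axis), numbered by replicate, with the mean ± SD of 3 arrays beside the points. Null lies above WT without overlap in each panel, and ΔG spans from ΔG replicate 1, near or below WT, to ΔG replicate 3, inside the null range.

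Genes that handle SREBPs changed in null as well, more of them downward than upward. Of 8 measured genes for SREBP processing and degradation, 4 fell and 1 rose, where 10.1% of all genes were called lower, and the median log2 change was −0.19. Mbtps1, the first of the proteases that cut SREBPs, read 10.54, 10.60 and 10.53 in WT, 10.36, 10.35 and 10.30 in ΔG and 10.10, 10.13 and 10.14 in null. The groups of Mbtps1 did not overlap, WT highest and null lowest, and the null change was −0.43 ± 0.06 (adjusted p = 0.000823). Erlin2, part of a complex that degrades Insig1, fell by 0.39 on the log2 scale (adjusted p = 0.00503), Insig2 by 0.28 (0.0224) and the ubiquitin ligase Rnf139 by 0.24 (0.0379). Erlin1, the partner of Erlin2, rose by 0.36 (0.0386), a call lost without WT replicate 1 or 3, ΔG replicate 2 or null replicate 1 or 2 (adjusted p up to 0.155). The 4 lower calls became 2 without WT replicate 1, WT replicate 2, null replicate 1 or null replicate 3, while those of Mbtps1 and Erlin2 were made whichever array was left out. The Rnf139 call was also lost without ΔG replicate 1, ΔG replicate 2 or null replicate 2, so it was kept in 2 of these 9 fits. Repeated quantile normalisation and the fit to only the 2 groups compared lost it too. Against WT replicate 3 alone only the Mbtps1 call was made, and none of the 8 was called in ΔG, where Mbtps1 had −0.22 (adjusted p = 0.173).

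Export of cholesterol, the opposite flow, had 4 of 8 measured genes lower in null and none higher. Over all genes 10.1% were called lower in null and 8.38% higher. The median log2 change of the 8 was −0.30. Abca1, the transporter that loads cholesterol onto apolipoproteins and a target of the sterol sensor LXR, read 9.33, 9.33 and 9.37 in WT, 9.32, 9.01 and 8.84 in ΔG and 8.30, 8.28 and 8.05 in null. It was 2.2-fold lower in null (−1.14 ± 0.11, adjusted p = 7.43e-05), and each null array lay more than 0.5 below the lowest of the other arrays. Its mean in ΔG was also lower than in WT, by 0.29, without passing the test (adjusted p = 0.345), and it was higher in ΔG than in null (0.85, 0.00145). The transporter Abcg1 fell by 0.49 in null (adjusted p = 0.0246), and the lysosomal cholesterol exporters Npc1 and Npc2 fell by 0.28 and 0.37 (0.0186 and 0.00622). The 4 calls became 2, Abca1 and Npc2, without WT replicate 2, null replicate 1 or null replicate 3. The Abca1 call in null was made under every alternative tried, while with WT replicate 3 alone or the Y-linked covariate it was the only one of the 4. Fibroblast markers fell in null too, 8 of 10 of them (5 without WT replicate 1, 1 with the Y-linked covariate), and their part in these changes was not tested.

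The median change in null over 5 measured genes for other steps of sterol and isoprenoid synthesis was −0.16. None was called higher (8.38% of all genes) and 1 was called lower (10.1% of all genes). That gene was Nus1, a subunit of the enzyme that makes dolichol precursors, at 9.98, 10.04 and 10.03 in WT, 9.79, 9.71 and 9.69 in ΔG and 9.82, 9.57 and 9.58 in null (−0.36, adjusted p = 0.00936). Cyb5r3, a reductase that passes electrons to several sterol and fatty acid enzymes, had −0.44 (adjusted p = 0.0936).

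Among 18 other genes of fatty acid and triglyceride synthesis, 2 rose and 3 fell in null, where 8.38% and 10.1% of all genes did, and the median change was 0.04. The balance rests on single arrays: 3 were called higher and 1 lower without WT replicate 2, 1 higher and 3 lower without WT replicate 3. Acsl4, which couples long-chain fatty acids to coenzyme A, read 8.62, 8.59 and 8.45 in WT, 8.42, 8.49 and 8.67 in ΔG and 9.10, 9.12 and 9.08 in null (0.55 ± 0.08, adjusted p = 0.000894). Hacd3, a dehydratase of the elongation cycle, was the only gene of the lipid lists called in ΔG against WT. It read 9.74, 9.88 and 9.85 in WT, 9.38, 9.30 and 9.35 in ΔG and 9.34, 9.24 and 9.19 in null, a fall of 0.48 in ΔG (adjusted p = 0.0114) and of 0.56 in null (0.00034). The ΔG call was lost without WT replicate 2 (0.063) or ΔG replicate 2 (0.056).

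Fatty acid oxidation, the breakdown route, had 5 of 10 measured genes lower in null and none higher. Over all genes 10.1% were called lower in null and 8.38% higher. The median change of the 10 was −0.24. Acadm, a mitochondrial acyl-CoA dehydrogenase, read 9.55, 9.66 and 9.76 in WT, 9.49, 9.50 and 9.47 in ΔG and 9.10, 9.17 and 9.08 in null (−0.54 ± 0.07, adjusted p = 0.000521), with no overlap between any of the groups. Cpt1a, the gate for fatty acids entering mitochondria, was at 9.97, 10.26 and 9.93 in WT, 9.88, 9.91 and 9.39 in ΔG and 9.26, 9.12 and 9.55 in null (−0.74, adjusted p = 0.00634), and ΔG replicate 3 lay within the null range. Cpt2, Hadha and Slc25a20 fell by 0.31, 0.26 and 0.32. Of the 5 calls, 2 were kept without WT replicate 1 or null replicate 2, and 3 without WT replicate 2, WT replicate 3 or null replicate 3, with those of Acadm and Cpt1a made each time. Without null replicate 2 the acyl-CoA dehydrogenase gene Acadvl was called in addition (adjusted p = 0.0335). With WT replicate 3 as the only WT array, or with the Y-linked covariate, 1 of the 10 was called, Acadm in both cases.

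**Figure D4:**
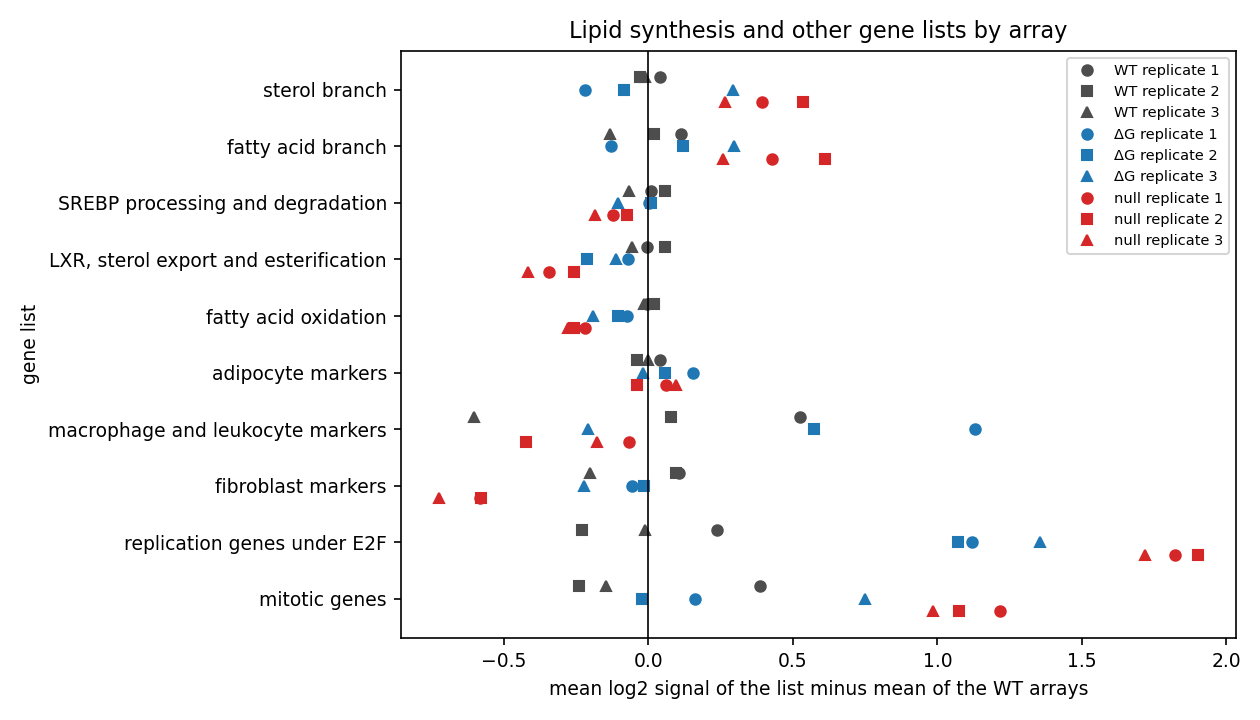
Mean log2 signal of each gene list on each array as the difference from the mean of the 3 WT arrays (x axis), for 10 lists (y axis), with colour for genotype and marker shape for replicate. In null both lipid synthesis branches lie to the right and export, oxidation and fibroblast lists to the left, while ΔG replicate 3 (blue triangle) lies right of the other ΔG arrays in both branches and in mitotic genes.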

How the data were processed

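Expression was measured on 9 arrays, 3 for each of 3 genotypes. The deposited table holds log2 values that the authors made by RMA with BRB-ArrayTools, per the series text. The submitters' processing notes also list affy. No source used here gives versions, annotation or build. RMA includes quantile normalisation, and array medians lay between 6.33 and 6.40. Of 35512 probe sets (1 without values), 21789 had exactly 1 symbol, 1621 several and 12101 none; 21698 matched RefSeq (GRCm38.p6) by gene ID. For 999 genes with several probe sets the brightest over all arrays was used, leaving 19938 genes.

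limma 3.58.1 (R 4.3.3) was fitted to all 9 arrays with a mean per genotype (6 residual degrees of freedom, default eBayes) and Benjamini-Hochberg adjustment over all genes at 0.05. The fit was tested on simulated data for null minus WT, with the same spread in each group. It called 59.7% of changes of log2 0.5, 97% of changes of 1 and 100% of changes of 2, with 10 false calls. Changes under 0.5 were not simulated. No label says that a group's arrays came from separate embryos, so p-values reflect only how far these arrays vary, in part perhaps technically. No depth exists for arrays; their number limits the precision.

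The members, lists, motifs and tests were chosen with earlier results of these data known. Array values are given for the 12 called members with the lowest adjusted p and for Srebf1, Srebf2, Insig1, Fasn, Scd1, Hmgcs1 and Sqle; Mvk and Hsd17b7 were added after their values were seen. Of each other lipid list, the replication list and the mitotic list the 2 lowest p in null and the lowest in ΔG are named (cell type markers are given as lists), and further called genes where a list had 5 or fewer. Alternatives were a dim-gene filter, median centring, repeated quantile normalisation, a replicate block, eBayes with trend, 2 groups alone, mean probe sets, array weights, a Y-linked covariate and leaving out each array; WT replicate 3 alone was added after seeing the data.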

Additional observations from a re-analysis of the deposited data

How the results depend on the processing

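In null minus WT, 15 members were called; the count was 24 after repeated quantile normalisation, 3 with the Y-linked covariate and 4 with WT replicate 3 as the only WT array (chosen after seeing the data), and leaving out 1 array at a time gave 9 to 20. Other settings gave 14 with median centring, 16 without the dimmest 25% of genes or with an eBayes trend, 20 with only the 2 groups, 15 with mean probe sets and 19 with array weights. In ΔG minus null, 7 were called; the count was 15 after repeated quantile normalisation, 23 with array weights, 0 with the Y-linked covariate and 1 to 22 with 1 array left out. In ΔG minus WT, 0 were called, and 0 to 1 with 1 array left out. Over all genes, the Y-linked covariate took the calls in null minus WT from 3678 to 1580 and in ΔG minus null from 1737 to 53, and WT replicate 3 alone gave 1782; array weights gave 292 against 162 in ΔG minus WT. Array numbers were not used to pair samples, since no label ties them to a litter and same-numbered arrays correlated at −0.084 to 0.269 in their deviations from the group means, not all with their own number best; with the replicate block 12 members were called in null minus WT, 6 in ΔG minus null and 0 in ΔG minus WT. In ΔG minus WT, array weights turned the sign of 15 of the 30 members and leaving out ΔG replicate 3 that of 14. Examples with array weights are Insig1 (−0.038), Hmgcs1 (−0.006) and Lss (−0.029); in null minus WT the sign turned for 1 member with array weights, Scd2 (−0.031), and for 1 with the Y-linked covariate, Hsd17b7 (−0.029). With 1 array left out, ΔG minus WT ranged from −0.115 to 0.343 for Insig1, −0.087 to 0.20 for Hmgcs1, −0.12 to 0.253 for Lss and −0.039 to 0.253 for Acss2; null minus WT from −0.002 to 0.081 for Hsd17b7 and −0.147 to 0.219 for Scd2; and ΔG minus null from −0.151 to 0.007 for Sc5d and −0.177 to 0.188 for Scd2. The cause of these shifts was not tested. The number of arrays, 3 a group, limits the precision of small changes.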

Other observations

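Genes of lipid storage and of fat cells moved in both directions in null. Fabp4, a fatty acid carrier of adipocytes and macrophages, was at 5.19, 5.23 and 4.88 in WT, 5.24, 5.06 and 5.26 in ΔG and 5.87, 5.87 and 5.91 in null, a rise of 0.78 ± 0.10 (SE; limma, adjusted p = 0.000307) that was called under every alternative tried. Its signal was dim, with a mean at percentile 27.7 of all genes. Lpl, the lipase that frees fatty acids from lipoproteins, read 7.91, 7.52 and 7.87 in WT, 8.63, 8.16 and 7.82 in ΔG and 6.93, 6.89 and 7.26 in null. It fell by 0.74 in null (adjusted p = 0.0159), a call lost without WT replicate 1 (0.057), WT replicate 3 (0.051), null replicate 1 (0.063) or null replicate 2 (0.059), and it was higher in ΔG than in null (1.17, 0.00304). Of 9 adipocyte markers, 2 rose in null (Fabp4 and Cebpa) and 1 fell, against 8.38% and 10.1% of all genes. The Cebpa call was lost without any WT array, null replicate 1 or null replicate 3 (adjusted p up to 0.127). The triglyceride genes Lpin1 and Dgat1 went opposite ways, with 0.59 (adjusted p = 0.0157) and −0.24 (0.0234). The Lpin1 call was lost without WT replicate 3 (0.051), and the Dgat1 call without WT replicate 2 (0.081), WT replicate 3 (0.06), null replicate 1 (0.076) or null replicate 3 (0.073). The dehydratase Hacd1 fell by 0.39 (0.0127), a call lost without WT replicate 2 (0.052).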
